A study of Rattus norvegicus with 71 samples.

Results

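The genes whose symbols start with Nduf encode respiratory complex I, and their transcripts were measured in the brains of newborn rats. All rows of the gene table whose symbol starts with Nduf were taken, which gave 44 of 17494 genes. They comprise 34 subunits, 7 Ndufaf assembly factors and 3 other rows, Ndufa4, Ndufa4l2 and Ndufa10l1. The subunits were divided by their place in the complex into 7 core subunits, 9 accessory subunits of the matrix arm and 18 accessory subunits of the membrane arm. Ndufa3, Ndufb1, Ndufc1, Ndufaf2 and the subunits encoded by mitochondrial DNA were not analysed here.

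The study asked how gestational exposure to maternal autoantibodies affects the early brain, in a rat model of maternal autoantibody-related autism. Bulk poly-A RNA sequencing was done on 1 coronal brain slice, including hippocampus, from each of 71 Sprague-Dawley pups on postnatal day 2. All pups had the wild-type genotype, and all dams had been injected before pregnancy with Freund's adjuvant. Control dams received adjuvant with saline (24 pups of 7 litters), and the other dams received adjuvant with peptides of LDHA/B+CRMP1+STIP1 (25 pups, 9 litters), CRMP1+CRMP2 (8 pups, 4 litters), STIP1+NSE (8 pups, 4 litters) or CRMP1+GDA (6 pups, 3 litters). These peptides come from lactate dehydrogenase A and B, collapsin response mediator proteins, stress-induced phosphoprotein, neuron-specific enolase and guanine deaminase. Exposure was thus set by the dam, and littermates share it. The libraries fall into 2 title series, which were the study's separately processed and sequenced batches. The series with IgG, RNA or FcRn titles holds 12 controls and 16 LDHA/B+CRMP1+STIP1 pups, and the series with MAR_C3 titles holds 12 controls, 9 LDHA/B+CRMP1+STIP1 pups and every pup of the other patterns.

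Complex I is the entry point of electrons from NADH into the mitochondrial respiratory chain. Its core subunits carry the flavin and the iron-sulfur clusters, and the energy released moves protons across the inner membrane. The accessory subunits surround and stabilise this core. Assembly factors build the complex from modules and are not part of the finished enzyme. Neurons depend heavily on oxidative phosphorylation, and inherited defects of complex I subunits or of assembly factors are known causes of Leigh syndrome.

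Library totals ran from 24880182 to 36234952 counts (median 28439195), and each of the 44 rows had counts in all 71 libraries. The MAR_C3 slices differed from the others in tissue content. The summed level of 9 choroid plexus markers had a median of 730.6 CPM (counts scaled to library size; range 142 to 2925) in the MAR_C3 controls and of 14.2 (6.84 to 114) in the IgG and RNA controls, and the 4 thalamus markers had medians of 523 and 17.8. Pineal markers were raised in 5 pups, of which 2 were CRMP1+CRMP2, 2 STIP1+NSE and 1 CRMP1+GDA. The 6 neuron markers and the 5 markers of cortex and hippocampus that the table holds were above 0 in every library. The series' design text names frontal cortex and hypothalamus instead of the labelled slice, and which of them holds for each library was not settled. In bulk tissue, fewer cells of a type and less RNA per cell cannot be told apart.

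Transcripts of most subunits were abundant for their length. Per length, as RPKM, which scales counts to exon length and library size, the median subunit stood at 86.1, against 13.3 for the median of 12477 expressed genes, and 33 of 34 subunits were above that median. The assembly factors had a median of 13.4 RPKM, and 4 of 7 lay above the median gene. In the plot of levels by row, the assembly factors lie below nearly all subunits.

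**Figure D1:**
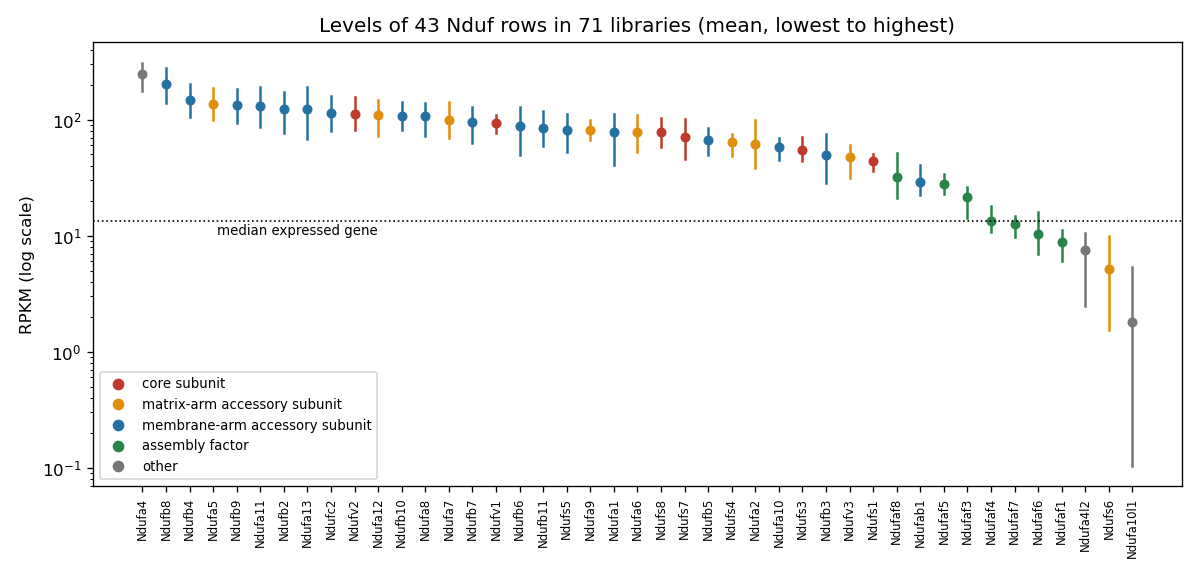
Levels of 43 of the 44 Nduf rows over 71 libraries, in RPKM on a log axis, with the mean as a point and the lowest to highest library as a line; the dotted line is the median expressed gene. All subunits drawn except Ndufs6 lie above the line, and the assembly factors run from 8.85 to 32.1 RPKM.

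Ndufa4, which was first assigned to complex I and is now known as a subunit of complex IV, had the highest level, 244.8 ± 30.4 RPKM (SD, n = 71). Ndufb8, a membrane-arm subunit, followed at 200.7 ± 31.2 RPKM, and Ndufb4, also of the membrane arm, at 147 ± 22.1 RPKM. Of the 43 pairs of neighbours in the order of levels, 8 differed by more than the larger SD of the pair, so most neighbours in the order were not separated beyond their spread.

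Of the core subunits, 6 are described by name. Ndufv2, which holds an iron-sulfur cluster, was at 112 ± 14.5 RPKM. Ndufv1, which binds the flavin and NADH, stood at 92.6 ± 8.79 RPKM. The iron-sulfur subunits Ndufs8 and Ndufs7 were at 77.6 ± 10.6 and 71.3 ± 10.3 RPKM. Ndufs3, a core subunit of the arm that hands electrons to the quinone, was at 54.2 ± 6.1 RPKM. Ndufs1, an iron-sulfur protein, was lowest of these at 44.2 ± 2.96 RPKM.

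Among the assembly factors, Ndufaf8 had the highest level, 32.1 ± 5.92 RPKM, followed by Ndufaf5 at 28.1 ± 2.38 RPKM. Ndufaf8 is the partner that stabilises Ndufaf5, which hydroxylates Ndufs7. Ndufaf3 was at 21.7 ± 2.81 RPKM and Ndufaf4, which works with Ndufaf3 on the quinone module, at 13.4 ± 1.33 RPKM. Ndufaf7, a methyltransferase, was at 12.6 ± 0.949 RPKM, Ndufaf6 at 10.3 ± 1.99 RPKM and Ndufaf1, a factor of the membrane arm, at 8.85 ± 1.04 RPKM.

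The 3 lowest rows were Ndufa4l2 at 7.52 ± 1.47 RPKM, Ndufs6 at 5.2 ± 1.78 RPKM and Ndufa10l1 at 1.81 ± 1.63 RPKM. Ndufa4l2 is a paralog of Ndufa4 known to be induced by hypoxia. The row named Ndufs6 lies on chromosome 2 (27201713 to 27202126, rn7), whereas RefSeq (GRCr8) places the gene Ndufs6 on chromosome 1 and lists on chromosome 2 a pseudogene, Ndufs6-ps1, that carries Ndufs6 as a synonym. The Ndufs6 values are therefore those of the chromosome 2 row and may not represent the subunit. The other 43 rows lie on the chromosome that RefSeq gives for their symbol. RefSeq lists 43 pseudogenes named after 18 of the 44 members, so counts of these members could be divided with near-identical copies, depending on how the reads were counted.

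Promoters of 38 members were found in RefSeq (GRCr8) under the same symbol and chromosome, as 300 bases of which 250 lie before the gene's start. Short motifs of factors known to act on respiratory genes were searched on both strands. The NRF1 letters GCATGCGC were in 4 of 38 member promoters and in 2.47% of all 33469 promoters. The ETS letters CCGGAAG, the type of site bound by Gabpa, were in 9 of 38 against 8.75%, and the YY1 letters AAGATGGCG in 7 of 38 against 1.73%. The ERR letters AAGGTCA were in 3 of 38 against 4.61%. A match is a run of letters and not a shown binding site. Only members with a motif inside the 120 bases before the start were eligible to have these bases printed. Those shown are 2 of the subunits with the smallest p in the comparison of CRMP1+CRMP2 with controls and 1 assembly factor. The motif is in capitals (ETS in Ndufb7, NRF1 in the other 2, where overlapping matches on both strands run together). The printed bases are, in GRCr8, chr19:41477292-41477411 on the minus strand, chr9:1637494-1637613 on the plus strand and chr3:147961492-147961611 on the plus strand, each read in the direction of the gene.
Ndufb7: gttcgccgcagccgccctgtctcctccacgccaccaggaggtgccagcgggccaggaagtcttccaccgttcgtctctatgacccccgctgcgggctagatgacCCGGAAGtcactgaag
Ndufa11: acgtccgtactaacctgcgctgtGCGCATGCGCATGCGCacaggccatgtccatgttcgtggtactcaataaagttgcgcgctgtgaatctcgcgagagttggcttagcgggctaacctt
Ndufaf5: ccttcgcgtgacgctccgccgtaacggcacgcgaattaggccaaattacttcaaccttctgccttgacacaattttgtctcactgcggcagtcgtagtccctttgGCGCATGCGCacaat

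The subunits varied together between animals. In 19 of 71 animals at least 30 of the 34 subunits lay below their own median over all animals, and in 16 animals at most 4 did. A mean level was formed for each animal as the mean over subunits of log2 CPM, centred on each gene's mean over 71 animals. Other gene lists moved too. In the animal with the highest subunit level (0.37), complex V genes stood at 0.46 and cytosolic ribosomal protein genes at 0.40. Genes with exons of 4000 bases and over stood at -0.22 in it. In the animal with the lowest (-0.38), these 3 lists stood at -0.40, -0.27 and 0.20. Whether the subunits varied together beyond such lists was not tested. Of the total sum of squares of this subunit level, 14.9% lay between groups and series, 48.8% between litters within them and 36.4% between littermates. These shares were not corrected for the numbers of groups, litters and pups. They are therefore not variance components, and their sizes cannot be ranked against each other. For the assembly factor level, the shares were 19.6%, 40.3% and 40.2%. The SD of log2 CPM over 71 animals had a median of 0.21 for the subunits, 0.17 for the assembly factors and 0.22 for all expressed genes.

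**Figure D2:**
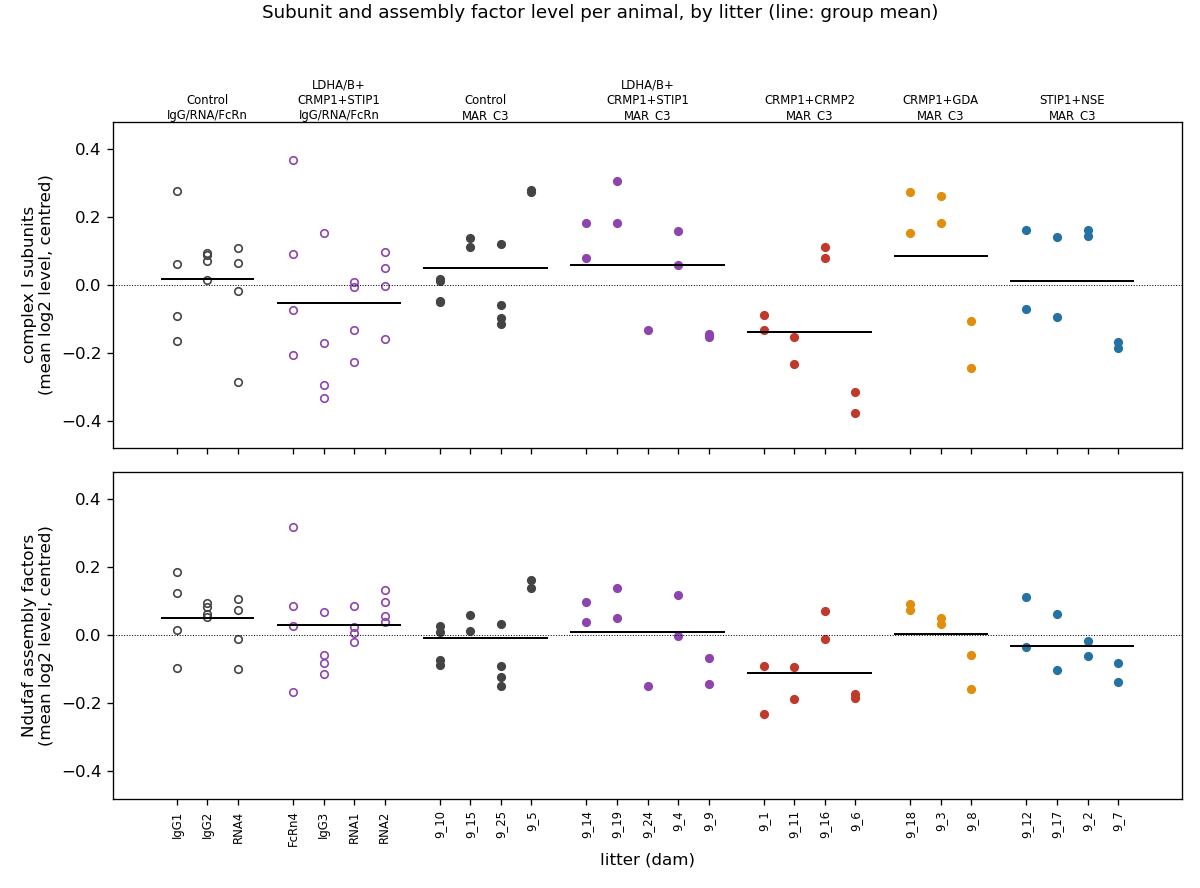
Mean log2 level of the 34 subunits (top) and of the 7 assembly factors (bottom) in each animal, centred on the mean of 71 animals, by litter; open points are IgG, RNA and FcRn titles, filled points MAR_C3 titles, and black lines group means. The CRMP1+CRMP2 litters 9_1, 9_11 and 9_6 lie below 0 in the upper panel and litter 9_16 lies above it.

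Control litters also differed from each other. Both pups of control litter 9_5 had a subunit level of 0.27 and 0.28, whereas the 4 pups of control litter 9_25 ran from -0.12 to 0.12. In litter FcRn4, exposed to LDHA/B+CRMP1+STIP1, littermates ran from -0.21 to 0.37. Over all 71 animals the level ran from -0.38 to 0.37.

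In CRMP1+CRMP2 pups, 15 of 34 complex I subunits were called lower than in the 24 controls when pups were taken as independent (edgeR), where 6.56% of 12691 genes were called lower. With litter as a random effect (limma, estimated correlation 0.346) 0 members were called, as were 0.063% of all genes. Without litter, of the 44 members, 17 were called lower and 0 higher at an adjusted p under 0.1 (edgeR), where 11.4% of genes were called in either direction. All 34 subunits had a fold change below 1, with a median log2 fold change of -0.17 (range -0.30 to -0.05) against 0.01 over all genes tested. The called members were 9 of 18 membrane-arm subunits, 3 of 9 matrix-arm accessory subunits, 3 of 7 core subunits, 1 of 7 assembly factors and Ndufa4. At an unadjusted p under 0.05, 27 members were lower and 0 higher, where 13.1% of all genes were lower.

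**Figure D3:**
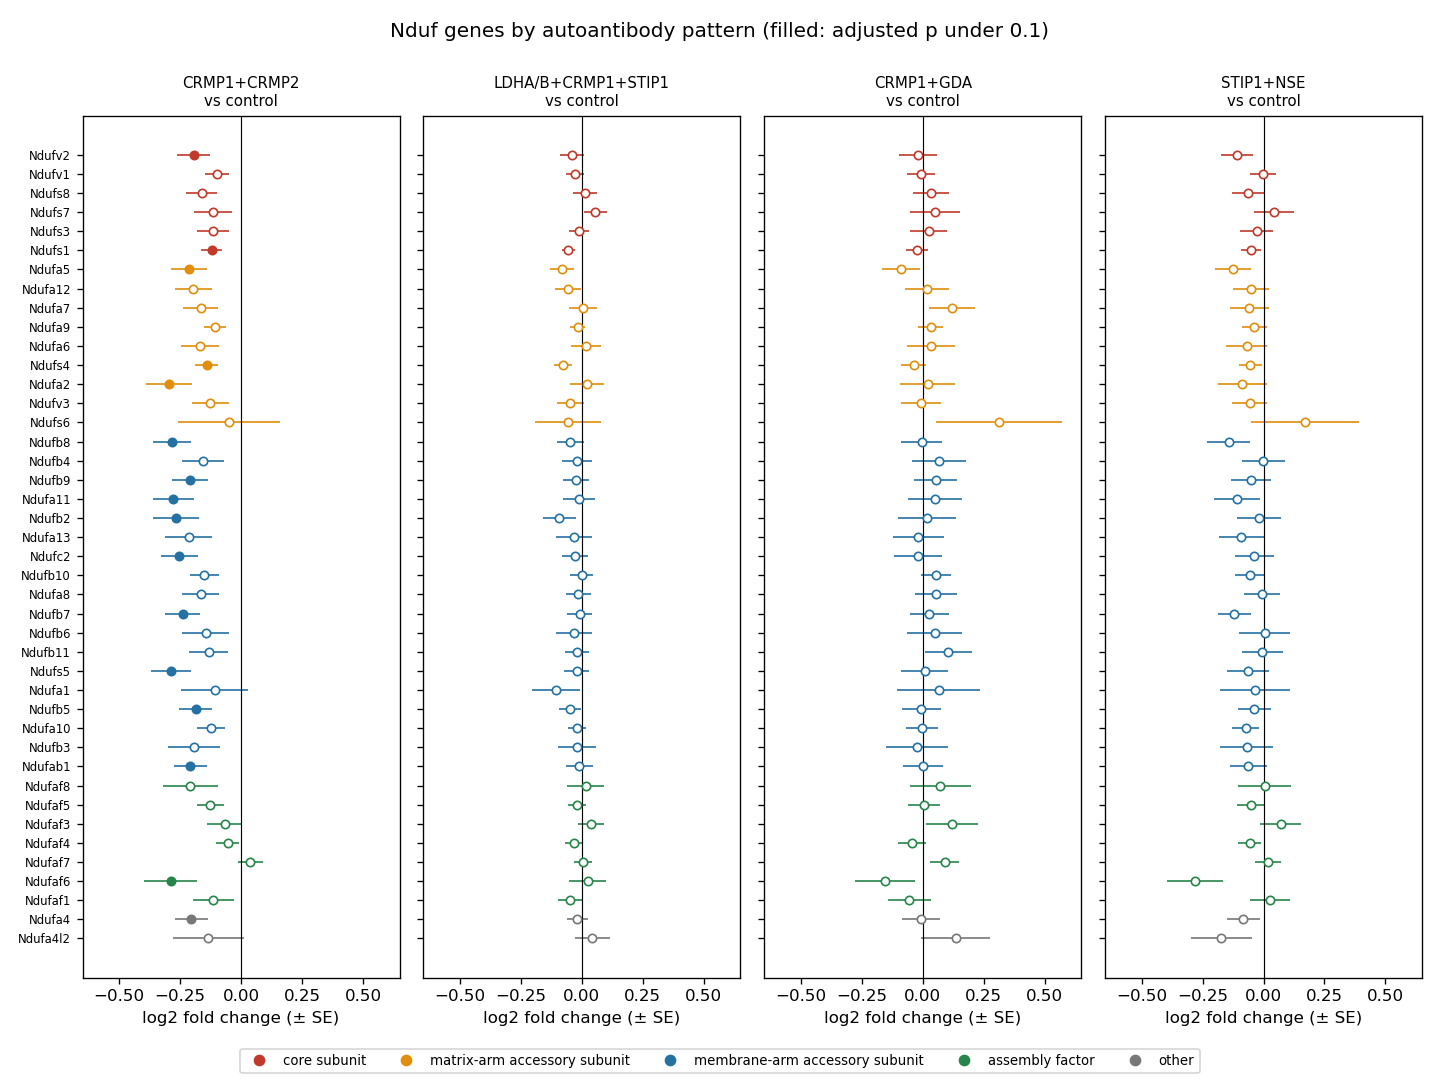
Log2 fold change against the 24 controls for 42 Nduf rows in each autoantibody pattern, with SE; filled points have an adjusted p under 0.1. Ndufa10l1, with an SE of 0.73 in the first panel, is not drawn. Filled points occur in the CRMP1+CRMP2 panel, and all 16 that are drawn lie left of 0.

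Ndufb8, a membrane-arm subunit (chromosome 1, 243408659 to 243413701, minus strand, rn7), had the smallest p. Its level ran from 91.2 to 142 normalised CPM (median 110.4) in the 8 CRMP1+CRMP2 pups, from 115 to 183 (median 133) in the 12 MAR_C3 controls and from 96.9 to 156 (median 133) in the 12 IgG and RNA controls. The groups overlapped, and 5 of 8 exposed pups lay below every MAR_C3 control. The log2 fold change was -0.28 ± 0.08 (SE, fold 0.822, adjusted p = 0.0339).

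Ndufs5, a membrane-arm subunit facing the intermembrane space (chromosome 5, 135974030 to 135979603, minus strand), ran from 27.5 to 44.8 normalised CPM (median 34.4) in CRMP1+CRMP2 pups. MAR_C3 controls ran from 31.1 to 52 (median 39.5) and the other controls from 36.7 to 56.5 (median 47.4). The log2 fold change was -0.29 ± 0.08 (adjusted p = 0.0411), with 1 of 8 pups below every MAR_C3 control. All 8 lay below the median of the 24 controls.

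Ndufb7, whose promoter is printed above, is also a membrane-arm subunit facing the intermembrane space (chromosome 19, 24568241 to 24572579, minus strand). It had 33.6 to 55.9 normalised CPM (median 43.2) in CRMP1+CRMP2 pups, 44.6 to 62.5 (median 49.9) in MAR_C3 controls and 46.6 to 64.3 (median 53.6) in the other controls. The log2 fold change was -0.24 ± 0.07 (adjusted p = 0.0458), and 5 of 8 pups lay below every MAR_C3 control.

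Ndufc2, a subunit of the membrane arm (chromosome 1, 151711965 to 151718188, plus strand), had 46.4 to 64.6 normalised CPM (median 55.5) in CRMP1+CRMP2 pups against 55.4 to 89.1 (median 61.9) and 53.9 to 79.5 (median 67.8) in the MAR_C3 and other controls. The log2 fold change was -0.25 ± 0.08 (adjusted p = 0.0472). Most exposed pups, 7 of 8, lay below the MAR_C3 control median, and the groups overlapped.

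Ndufa11, a membrane-arm subunit whose promoter carries the run of NRF1 letters (chromosome 9, 1550487 to 1554546, plus strand), had 44.3 to 64.2 normalised CPM (median 56.1). MAR_C3 controls had 55 to 87.9 (median 61.9) and the other controls 52.9 to 93.2 (median 76.2). Its log2 fold change was -0.28 ± 0.08 (adjusted p = 0.049). Ndufa2, an accessory subunit of the matrix arm (chromosome 18, 28355774 to 28357863, minus strand), had 21.4 to 34.5 normalised CPM (median 27.2), against 25.4 to 40.1 (median 32.9) in MAR_C3 controls and 28 to 49.2 (median 39.7) in the other controls. Its log2 fold change was -0.30 ± 0.10 (adjusted p = 0.0644). For Ndufs5, Ndufa11 and Ndufa2 the 2 control series differed from each other as well, as given below for the title series.

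Among the core subunits, those called lower included Ndufv2 (log2 fold change -0.19 ± 0.07, adjusted p = 0.0783) and Ndufs1 (-0.12 ± 0.04, adjusted p = 0.0887). Ndufv2 was also called lower in MAR_C3 controls than in the other controls, as given below for the title series. The 4 that were not called had log2 fold changes from -0.16 for Ndufs8 to -0.10 for Ndufv1. Ndufs1 ran from 88.5 to 117 normalised CPM in CRMP1+CRMP2 pups and from 101 to 118 in MAR_C3 controls, so the ranges overlapped.

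The assembly factors had a median log2 fold change of -0.11, and 6 of 7 were below 0. Ndufaf6, an early assembly factor, was called, at -0.29 ± 0.11 (adjusted p = 0.0959), with 7.2 to 11.5 normalised CPM (median 9.04) in CRMP1+CRMP2 pups and 8.44 to 15.5 (median 11.4) in MAR_C3 controls. Ndufaf8 stood at -0.21 ± 0.11 (adjusted p = 0.25), Ndufaf5 at -0.13 ± 0.06 (adjusted p = 0.16) and Ndufaf1 at -0.11 ± 0.08 (adjusted p = 0.403). Ndufaf3 and Ndufaf4, the pair of the quinone module, were at -0.07 ± 0.07 and -0.05 ± 0.05, and Ndufaf7 was at 0.04 ± 0.05. The difference between subunits and assembly factors was not tested. The 7 further assembly genes that do not carry the Nduf name, among them Acad9, Ecsit and Timmdc1, had a median of -0.02, and 0 of 7 were called (edgeR, 1 at an unadjusted p under 0.05). Of the 3 other Nduf rows, Ndufa4 was called at -0.20 ± 0.07 (adjusted p = 0.0667), while Ndufa4l2 stood at -0.13 ± 0.15.

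The calls depended on which controls and litters entered. Against the 12 MAR_C3 controls alone, with sex as covariate, the subunit median was the same size, -0.17, with 34 of 34 subunits below 0, but 0 of 44 members were called (edgeR, 21 lower at an unadjusted p under 0.05, as were 10.5% of all genes), where 1.01% of 12605 genes were. With title series and sex as covariates 1 member was called, and 3.87% of all genes. Leaving out litter 9_6 gave 0 called members (0.379% of all genes), leaving out 9_11 gave 3 (6.31%), leaving out 9_1 gave 11 (11.8%) and leaving out 9_16 gave 33 (22.8%). Leaving out control litters IgG2, 9_5 or 9_15 gave 4, 5 and 6 (6.35%, 8.02% and 8.07%). Without the 2 CRMP1+CRMP2 pups with pineal RNA, 0 members were called (2.56%). The share of all genes called moved in the same direction as the members for these litters, except 9_1. Without 9_1 that share was 11.8%, against 11.4% with all litters. The subunit median stayed below 0 in all 26 alternatives of this comparison, from -0.25 to -0.09.

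Markers of other tissue moved in the same comparison. All 9 choroid plexus markers were called higher, with a median log2 fold change of 1.88, where 11.4% of all genes were called in either direction. Their summed level ran from 198 to 3363 CPM (median 1146) in CRMP1+CRMP2 pups. MAR_C3 controls ran from 142 to 2925 (median 731) and the IgG and RNA controls from 6.84 to 114 (median 14.2). The other exposed MAR_C3 pups had a median of 1110. The 24 controls thus join 2 series that differ in this RNA, and all CRMP1+CRMP2 pups are of the MAR_C3 series. With a choroid plexus score as covariate, 20 members were called lower, and 15.2% of all genes were called. Because the score differs so much between the control series, this fit cannot tell choroid plexus RNA from title series. All 5 pineal markers were called higher (median 3.84). Their summed level was 246 and 69.5 CPM in 2 pups of the pattern. In its other pups it ran from 3.18 to 6.7 CPM, and controls had at most 6.66. Of the radial glia and astrocyte markers 2 of 6 were called lower (median -0.20), and of the neuron markers 2 of 6 (median -0.07). The part of these cells in the subunit values was not tested.

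The litters of this pattern were unlike each other. Litter 9_6, of 2 males, had subunit levels of -0.38 and -0.31, with the lower value the lowest of all 71 animals. Litter 9_11 had -0.23 and -0.15, and litter 9_1 had -0.13 and -0.09. Litter 9_16 had 0.08 and 0.11, above the mean of the MAR_C3 controls, which was 0.05 ± 0.14 (SD, n = 12). The mean over the 8 pups was -0.14 ± 0.17, and the median pup had 30 of 34 subunits below their median over all animals, against 15.5 in MAR_C3 controls.

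Genes of other respiratory complexes and ribosomal protein genes were also among those called lower. In litter 9_6 the mean log2 level of complex III genes was -0.40, of complex IV genes -0.45, of complex V genes -0.36, of cytosolic ribosomal protein genes -0.31 and of mitochondrial ribosomal protein genes -0.24. In litter 9_16 these 5 levels lay between 0.04 and 0.10. Over the 4 litters, 5 of 9 complex III, 5 of 14 complex IV, 5 of 17 complex V and 1 of 4 complex II genes were called lower and 0 higher, and of the ribosomal protein genes 16 of 73 cytosolic and 12 of 71 mitochondrial ones were called lower and 0 higher. Genes with exons under 1000 bases in total had a median log2 fold change of -0.10, and those of 4000 bases and over 0.09. The median exon length was 646 bases for the subunits, 1437 for the assembly factors and 2226 for all expressed genes. The part of transcript length in the lower subunit levels was not tested. Of 6 regulators of respiratory genes, Gabpa, named here after its value was seen, was called higher (0.18 ± 0.05, adjusted p = 0.0318), and Ppargc1a, Nrf1, Tfam, Esrra and Yy1 were not called, at -0.06 to -0.02.

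The CRMP1+CRMP2 pups were then set against the 23 other exposed pups of the MAR_C3 series, a comparison that shares no control animals and was chosen after the values were seen. No gene was called in it (0% of 12698 in either direction, 0% lower), members included (edgeR, 27 of 44 members lower at an unadjusted p under 0.05, as were 7.31% of all genes). The subunit median log2 difference was -0.19, with 34 of 34 below 0. Subunit levels ran from -0.38 to 0.11 (median -0.14) in the 8 pups and from -0.24 to 0.31 (median 0.14) in the other 23.

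In the other patterns 0 members were called by edgeR, and DESeq2 also gave 0. In LDHA/B+CRMP1+STIP1 pups the subunit median log2 fold change was -0.02 (0.0157% of genes called), with 2 members at an unadjusted p under 0.05, Ndufs1 at -0.06 ± 0.03 and Ndufs4 at -0.08 ± 0.04, both below 0. In STIP1+NSE pups it was -0.05 (0.0474% called), with 31 of 34 subunits below 0 and 1 member, Ndufaf6, at an unadjusted p under 0.05 (-0.28 ± 0.11). In CRMP1+GDA pups it was 0.02 (0% called), with 12 of 34 below 0 and 0 members at an unadjusted p under 0.05. Because the subunits varied together between animals, the subunits counted below 0 are not independent of each other. The subunit level was 0.01 ± 0.16 (SD, n = 8) in STIP1+NSE and 0.09 ± 0.21 (n = 6) in CRMP1+GDA pups. In MAR_C3 controls it was 0.05 ± 0.14 (n = 12). In CRMP1+GDA the pups of litters 9_18 and 9_3 ran from 0.15 to 0.27 and those of litter 9_8 were at -0.24 and -0.11. The 4 patterns share the 24 controls.

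For all 47 exposed pups together against 24 controls, 0 members were called (edgeR; DESeq2 also gave 0), where 0.00801% of 12477 genes were. The subunit median was -0.05, with 32 of 34 below 0, and the assembly factor median was -0.03. At an unadjusted p under 0.05, 3 members were lower: Ndufa5 (-0.11 ± 0.04), Ndufs4 (-0.08 ± 0.03) and Ndufs1 (-0.05 ± 0.02). In this fit and those of LDHA/B+CRMP1+STIP1, STIP1+NSE and CRMP1+GDA pups, the share of all genes at this threshold is not given. The members that pass it there are therefore not read as a result about complex I. Ndufa5 and Ndufs4 are accessory subunits of the matrix arm, and Ndufs4 is a known site of Leigh syndrome mutations.

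The title series were compared in unexposed animals and, separately, in LDHA/B+CRMP1+STIP1 pups, which share no animal. In controls 41.5% of 12565 genes were called, 21.3% higher and 20.2% lower in the MAR_C3 series, while 9 of 44 members were called, 3 higher and 6 lower. In LDHA/B+CRMP1+STIP1 pups 41.3% of 12533 genes were called, 21.4% higher and 19.9% lower, and 9 of 44 members, 8 higher and 1 lower. Subunit medians were 0.01 and 0.08. The split in controls depended on scaling, since without normalization factors 6 members were called higher and 1 lower (40.7% of all genes called).

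**Figure D4:**
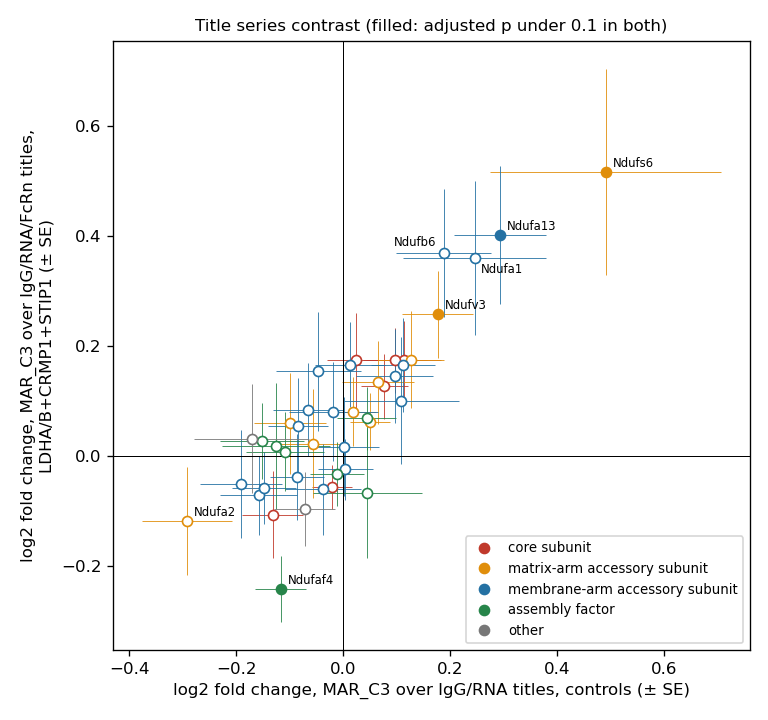
Log2 fold change of the MAR_C3 over the other title series for 42 Nduf rows (Ndufa10l1 not drawn) in controls (x axis) and in LDHA/B+CRMP1+STIP1 pups (y axis), with SE; filled points have an adjusted p under 0.1 in both. Ndufs6, Ndufa13 and Ndufv3 lie at the upper right and Ndufaf4 at the lower left.

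Of these, 4 members were called in both, each in the same direction, and 30 of 44 had the same sign. Ndufa13, a membrane-arm subunit also known as a cell death regulator, had 54 to 83 normalised CPM (median 63.8) in MAR_C3 controls and 35.3 to 70.7 (median 52.3) in the other controls. Its log2 fold change was 0.29 ± 0.09 in controls (adjusted p = 0.00931) and 0.40 ± 0.13 in LDHA/B+CRMP1+STIP1 pups (adjusted p = 0.0156). Ndufv3, an accessory subunit of the NADH-binding module, was higher by 0.18 ± 0.07 (adjusted p = 0.0402) and 0.26 ± 0.08 (adjusted p = 0.0135). The Ndufs6 row, at 0.87 to 2.89 normalised CPM against 0.543 to 2.34, was higher by 0.49 ± 0.22 (adjusted p = 0.0796) and 0.52 ± 0.19 (adjusted p = 0.0349).

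Ndufaf4 was the member called lower in both. It had 24.1 to 30 normalised CPM (median 26.9) in MAR_C3 controls and 26.1 to 33.8 (median 28.9) in the other controls, a log2 fold change of -0.12 ± 0.05 (adjusted p = 0.0575). In LDHA/B+CRMP1+STIP1 pups it had 22 to 29.9 (median 25.1) against 25.5 to 37.3 (median 29.8), or -0.24 ± 0.06 (adjusted p = 0.00318). The ranges overlapped in each.

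Of the members called in controls alone, Ndufa2 had the smallest p, at -0.29 ± 0.08 (adjusted p = 0.00808), and was followed by Ndufb5 (-0.15 ± 0.06, adjusted p = 0.0553) and Ndufa11 (-0.19 ± 0.08, adjusted p = 0.0559). Ndufv2 and Ndufs5 were also lower, at -0.13 ± 0.06 and -0.16 ± 0.07. In LDHA/B+CRMP1+STIP1 pups alone, Ndufb6 (0.37 ± 0.12, adjusted p = 0.0167), Ndufs3 (0.17 ± 0.06, adjusted p = 0.0228) and Ndufa1 (0.36 ± 0.14, adjusted p = 0.0488) were among those called higher, with Ndufs7 (0.18 ± 0.07) and Ndufb11 (0.17 ± 0.08). Whether these effects differ between the groups of pups was asked with the interaction below.

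The calls moved with litters and with a choroid plexus score as covariate. In controls, leaving out litter IgG1 gave 4 called members, where 38.5% of all genes were called. Litter as a random effect gave 1 higher and 1 lower (22.4% of all genes called). Leaving out control litter 9_25 turned the split to 7 higher and 0 lower (31.3%), and leaving out 9_5 to 2 higher and 11 lower (41.9%). In LDHA/B+CRMP1+STIP1 pups, leaving out litter 9_19 gave 5 (32.8%) and leaving out 9_9 gave 16 (42.9%). With a choroid plexus score as covariate, 0 members were called higher and 6 lower in controls, where 26.4% of all genes were called, and 0 in LDHA/B+CRMP1+STIP1 pups, where 4.01% were. In LDHA/B+CRMP1+STIP1 pups the summed choroid plexus markers ran from 4.52 to 585 CPM in the IgG, RNA and FcRn series. In the MAR_C3 series they ran from 386 to 2198 CPM. Because the score differs so much between the series, a fit with it cannot tell choroid plexus RNA from title series. The part of tissue content in these values was not tested.

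LDHA/B+CRMP1+STIP1 was also compared with controls inside each series. In the IgG, RNA and FcRn series (16 against 12 pups; 0.0161% of genes called) the subunit median was -0.06, with 33 of 34 below 0, and 0 members were called (edgeR, 1 at an unadjusted p under 0.05, Ndufs4 at -0.11 ± 0.05). In the MAR_C3 series (9 against 12 pups; 0% called) it was 0.01, with 16 of 34 below 0, and 0 members were called (0 at an unadjusted p under 0.05). DESeq2 gave 0 in both. The difference between the series in this effect called 0 members (edgeR, 0 at an unadjusted p under 0.05; DESeq2 0), where 0.11% of genes were called, and its subunit median was 0.08.

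Male and female pups were compared over all 71 animals, with pattern and series in the model. No member was called (edgeR and DESeq2; 0 at an unadjusted p under 0.05), where 0.0641% of genes were. The subunit median log2 difference, male over female, was -0.01. Ndufa1 and Ndufb11, the 2 members on the X chromosome, stood at 0.04 ± 0.08 and -0.02 ± 0.05.

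Ndufa10l1 behaved unlike the other rows. It is a paralog of the membrane-arm subunit Ndufa10 (chromosome 6, 59879819 to 59881252, minus strand, rn7). Its values fell into 2 ranges: 36 animals had at most 1.18 normalised CPM, 35 had at least 2.49, and no animal lay between. Of 27 litters, 11 lay wholly in the lower range, 9 wholly in the upper and 7 held pups of both. In the MAR_C3 series the lower range held 7 of 8 CRMP1+CRMP2, 5 of 8 STIP1+NSE, 4 of 6 CRMP1+GDA, 3 of 9 LDHA/B+CRMP1+STIP1 and 8 of 12 control pups. In the other series it held 7 of 16 LDHA/B+CRMP1+STIP1 and 2 of 12 control pups. Its SD of log2 CPM was 1.6, against a median of 0.21 for the subunits, and it was called in none of the comparisons above.

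**Figure D5:**
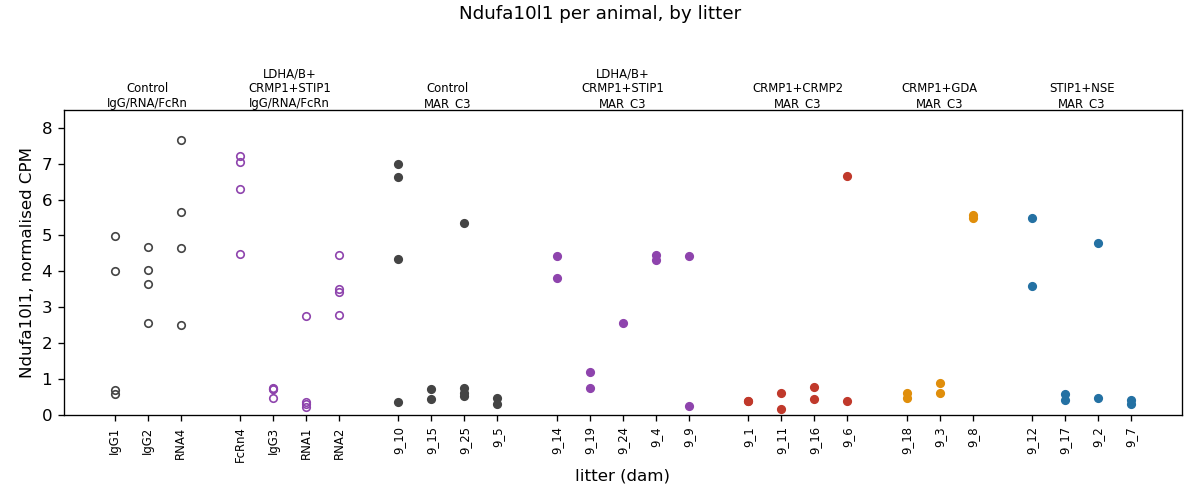
Ndufa10l1 in each animal, in normalised CPM, by litter; open points are IgG, RNA and FcRn titles and filled points MAR_C3 titles. Points lie at or below 1.18 or at or above 2.49, with littermates on both sides in 7 of 27 litters.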

How the data were processed

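RNA from postnatal day 2 brain slices was sequenced by the authors, who aligned the reads with STAR 2.5.4b to rn7 and counted them per gene with featureCounts. They deposited raw counts, and counting options are not given in the sources used here. Of the counts from 1 to 9, 74.5% were even, so halved counts were tried. Groups came from the autoantibody labels. No paper values were used.

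From the counts, normalised CPM were computed with TMM factors and RPKM with the deposited exon lengths. Comparisons were fitted over all genes with edgeR 4.0.16 (quasi-likelihood, robust; R 4.3.3) and Benjamini-Hochberg adjustment, with a call at FDR under 0.1. The SE was the log2 fold change divided by the root of F. The fits of all exposed pups and of sex used a floor of 1 CPM reached in 8 or more libraries, and the others a level above 1 CPM in 2 or more. Exposure comparisons over both series had 1 surrogate variable (sva 3.50.0). Comparisons of title series, and within them, had sex as covariate, and that of sex had pattern and series. All 44 members passed every filter. Any 2 libraries differed by more than counting noise. Pups of a litter share a dam, so p-values over pups treat related animals as independent. The code was tested on simulated data. Alternatives were DESeq2 1.42.0, other size factors, no filter, halved counts, other covariates, limma 3.58.1 with litter as a random effect, and each litter left out.

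Full values were given for called members (the 6 with the smallest p where more were called), the 3 highest and 3 lowest levels, core subunits and assembly factors. The members and gene lists were chosen with earlier results of these data known. The counts and medians cover all 44 members, but 1 member is not reported here by name.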

Additional observations from a re-analysis of the deposited data

Results flagged for a closer look

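In groups of 6 to 9 MAR_C3 pups, 184 sets of values were checked for a single animal far from its group, and 4 were found. Chance alone gives about 1 in 20 groups, so 4 of 184 is not more than chance would give. Among the CRMP1+CRMP2 pups, 1 of litter 9_6 had Ndufa10l1 at 6.67 normalised CPM, while the next highest pup had 0.774. In the CRMP1+GDA group, Ndufaf8 was at 10.3 normalised CPM in 1 pup and at 14.9 in the next, and Ndufv3 was at 64.3 in the same pup and at 78 in the next. Ndufs1 was at 95.6 normalised CPM in another CRMP1+GDA pup, with the next at 113. Both of these pups belong to litter 9_8, the lowest of that group in subunit level.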

How the results depend on the processing

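In 8 comparisons, 0 members were called under any alternative run: exposure over all patterns, LDHA/B+CRMP1+STIP1 (over both series, in each and their difference), CRMP1+GDA, STIP1+NSE and sex. No alternatives were run for CRMP1+CRMP2 against the other exposed pups. For CRMP1+CRMP2 against controls, the 17 called members became 6 without normalization factors, where 10.7% of all genes were called. They became 1 with title series and sex as covariates (3.87%), and 0 with litter as a random effect (0.063%) or in MAR_C3 titles only (1.01%). Leaving out 1 litter of the pattern gave 0 to 33 called members (0.379% to 22.8% of all genes). Leaving out 1 control litter, chosen after seeing the data, gave 4 to 21 (6.35% to 22.1%). In MAR_C3 titles only, leaving out 1 litter gave 0 to 29 (0% to 16.5% of all genes). Against all controls, leaving out the pups with pineal RNA gave 0 (2.56%). Both were also added after seeing the data. For title series, the 9 members called in controls became 2 with litter as a random effect (22.4% of all genes). With 1 litter left out they became 4 to 13 (31.3% to 41.9%). The 9 in LDHA/B+CRMP1+STIP1 became 14 without normalization factors (41.4%), 0 with a choroid plexus score (4.01%), and 5 to 16 with 1 litter left out (32.8% to 42.9%). With that score the Ndufs6 difference turned from 0.52 to -0.22. No subunit median moved by more than the spread of the controls (0.138), and it changed sign in none of 26 alternatives for CRMP1+CRMP2, 2 of 14 for CRMP1+GDA, 2 of 19 for LDHA/B+CRMP1+STIP1, 1 of 15 for STIP1+NSE, 4 of 11 for LDHA/B+CRMP1+STIP1 in MAR_C3 titles, 2 of 8 for sex, 4 of 14 for title series in controls, 1 of 12 for title series in LDHA/B+CRMP1+STIP1 and none of the others. Direction was followed only for the 6 called members with the smallest p in each comparison, and none of these changed direction in the other alternatives. The cause was not tested. No paired analysis was possible because replicate numbers were given in accession order and exposure was set by dam. This holds for exposure and title series. Sex varies within litters, and with litter as a random effect 0 members were called by sex. With 4 litters or fewer in 3 of the patterns, precision is limited by the number of litters. Whether depth, which was at least 24880182 counts, limits it less was not tested.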
